A study of Mus musculus with 11 samples.

Results

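The Ifi200 genes are a cluster of interferon-inducible mouse genes whose products bind DNA. The members described here were picked by name from 8 symbols, Aim2, Ifi203, Ifi204, Ifi207, Ifi209, Ifi211, Ifi213 and Mnda, which gave 7 genes of the 50686 in the count tables, since Mnda is listed in RefSeq as another name of Ifi211. RNA-seq was done on 11 libraries from the GL261 model, a mouse glioma line grown in the brain of C57BL/6 mice. Bulk tumours came from 3 Rheb1 fl/fl mice (replicates 35, 38 and 110) and 3 Cx3cr1-Rheb1 Δ/Δ mice (replicates 26, 36 and 37), and microglia sorted from tumours as CD11b+ CD45low cells (TAM-MG) from 2 Rheb1 fl/fl mice (replicates 74 and 78) and 3 Rheb1 Δ/Δ mice (replicates 54, 63 and 65). All mice carried floxed Rheb1 and received tamoxifen 3 weeks before injection of the tumour cells at 6 weeks of age, and tissue was collected 3 weeks later. The Δ/Δ mice also carried a tamoxifen-dependent Cre knocked into Cx3cr1, which deletes exon 3 of Rheb1, the activator of mTORC1, in microglia and in other Cx3cr1-expressing cells, whereas the fl/fl controls had no Cre. Bulk RNA was taken from formalin-fixed, paraffin-embedded tissue, and TAM-MG RNA from sorted cells.

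Most Ifi200 proteins join a pyrin domain, which binds other pyrin proteins, to 1 or more HIN domains, which hold double-stranded DNA. Aim2 detects DNA in the cytosol and nucleates an inflammasome with the adaptor Asc (encoded by Pycard) and caspase-1, which matures interleukin-1β and interleukin-18. Ifi204 is reported to act beside cGAS and STING in the induction of type I interferon, and interferons in turn raise the transcription of many genes of the cluster in myeloid cells.

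The 14 genes of the cluster lie on chromosome 1 of GRCm38 between 173350879 and 174031810, with Aim2 at one end (173350879 to 173466040, plus strand). Beside the 7 members there are Ifi202b, Ifi203-ps, Ifi205, Ifi206, Ifi208, Ifi214 and Mndal. The genes arose by duplication and some share long runs of sequence, so that reads can fit more than 1 of them. Of all 75-base windows of their annotated transcripts, 63.6% were shared letter for letter with another gene for Ifi211 (mostly with Ifi205 and Ifi204), 23.1% for Ifi209 (with Ifi214) and 13.2% for Ifi204. The share was 8.1% for Ifi213, 5.7% for Ifi203 and 2.8% for Ifi207. No window of Aim2 was shared. Counts of Ifi211 and Ifi209 are therefore the least certain among the members.

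**Figure D1:**
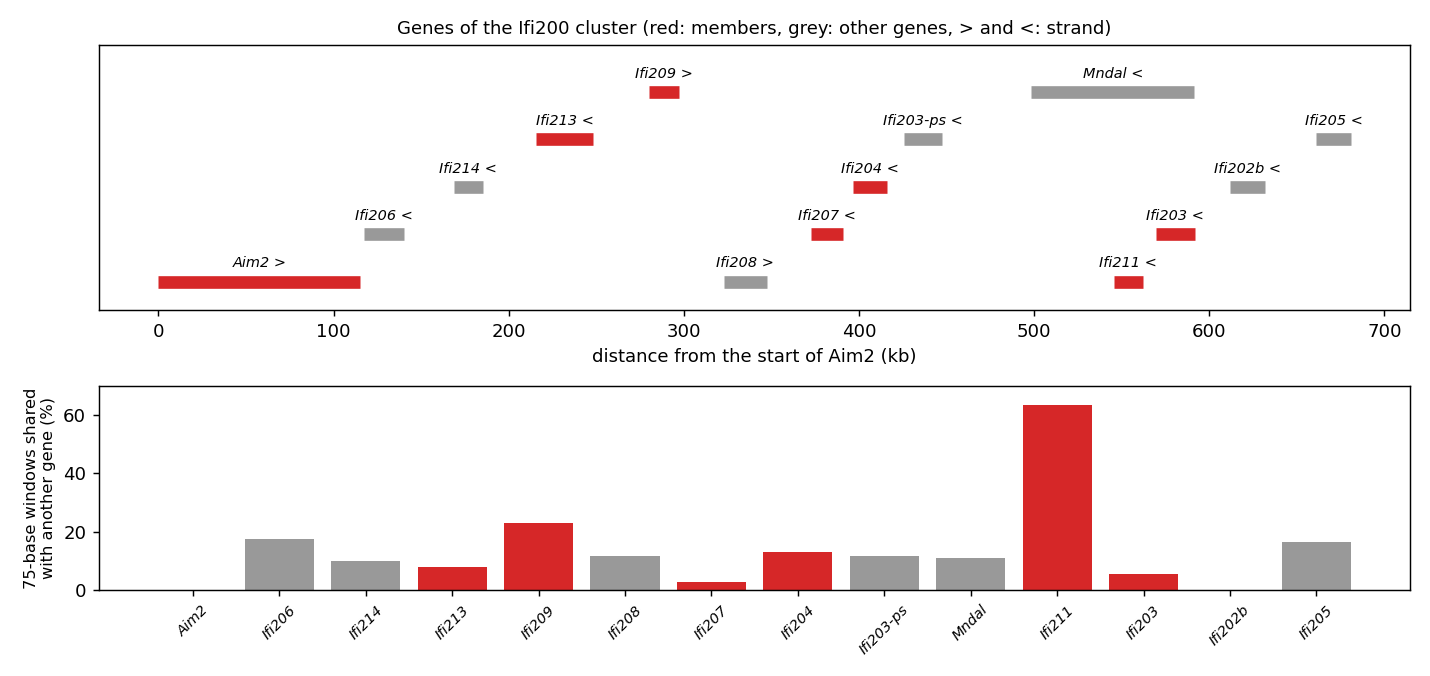
The upper panel maps the cluster by distance in kb from the start of Aim2, with the 7 members in red and the 7 other genes in grey. The bars below give the percent of 75-base transcript windows that each gene shares with another gene, which ran from 0 for Aim2 to 63.6% for Ifi211.

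The promoter sequences show what several members share besides their proteins. RefSeq promoters of GRCm38.p6, from 250 bases before to 50 bases after a start site, were at hand for 6 of the 7 members; Ifi204 had none. An interferon-stimulated response element, a site bound by IRF factors, was searched on both strands as GAAA, any 2 bases and GAAA again. It stood in the promoters of 4 of these 6 members, Ifi203, Ifi207, Ifi211 and Ifi213, and of 5 of 6 other cluster genes with a promoter, Ifi205, Ifi206, Ifi208, Ifi214 and Mndal, against 3.99% of all 27025 genes with a promoter (3.44% of all promoters). Aim2, Ifi209 and Ifi202b had no such match in the window. The interferon-γ activated site, searched as TTCNNNGAA, was in none of the 6 member promoters and in 9.55% of all genes (8.3% of all promoters). The stretches around the first element, 50 bases each, are shown on the gene's own strand with the match in capitals.
Ifi203, chr1:173942498-173942547: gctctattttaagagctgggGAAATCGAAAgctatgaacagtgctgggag
Ifi207, chr1:173741821-173741870: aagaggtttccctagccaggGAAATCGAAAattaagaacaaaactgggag
Ifi211, chr1:173913054-173913103: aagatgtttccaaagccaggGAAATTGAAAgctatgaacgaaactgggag
Ifi213, chr1:173599316-173599365: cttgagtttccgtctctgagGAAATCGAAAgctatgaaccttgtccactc
All 4 genes are on the minus strand. The match began 35, 41, 37 and 73 bases before the RefSeq start site in Ifi203, Ifi207, Ifi211 and Ifi213. The first 40 transcribed bases from this site were found in an annotated transcript for Ifi211 and Ifi213, but not for Ifi203 and Ifi207. The annotated Ifi203 gene starts at 173942672, so that its stretch lies inside that gene. Ifi207 and Ifi211 had the same base at 42 of the 50 positions, and the other pairs at 25 to 35. A match of letters is a description of the sequence and was not tested as a binding site.

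Rheb1, annotated as Rheb, had 235 to 348 CPM (counts per 1000000, scaled by TMM within each experiment) in fl/fl and 125 to 225 in Δ/Δ bulk tumours, and 86.5 and 164 in fl/fl against 67.8 to 71.2 in Δ/Δ TAM-MG. These counts cover the whole gene, including exons that remain after deletion of exon 3. Total counts ran from 14940787 to 21991348 in bulk tumours and from 20765767 to 29947977 in TAM-MG. The labelled cell type was checked against its markers. The summed level of 9 microglia genes such as P2ry12 and Tmem119 was 18442 to 32217 CPM in TAM-MG and 33.3 to 426 CPM in bulk tumours.

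In bulk tumours, most of the family was lower in Cx3cr1-Rheb1 Δ/Δ mice, and Ifi204 had the largest difference among the 7 members, but no member was called. The call was a Benjamini-Hochberg adjusted p under 0.05 in edgeR's quasi-likelihood test with a change of at least 1.5-fold, which 0 of 17028 tested genes reached (0%). At an unadjusted p under 0.05 in that test, 3 members were lower (Ifi203, Ifi204 and Ifi211) and 0 higher, beside 883 lower and 650 higher genes in all. Of the 7 members, 5 had a negative and 2 a positive log2 fold change, with a median of -1.68, and the median of all tested genes was 0.0034. In 4 members, Ifi203, Ifi204, Ifi207 and Ifi211, every Δ/Δ tumour was below every fl/fl tumour, which 9.23% of all tested genes showed. No member had every Δ/Δ tumour above every fl/fl tumour, as 7.82% of all genes did.

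Aim2 showed no separation of the genotypes in bulk tumours. It had 5.78, 3.999 and 14.4 CPM in the fl/fl tumours 35, 38 and 110 and 2.89, 6.78 and 18.1 CPM in the Δ/Δ tumours 26, 36 and 37. The ranges overlap fully, with 1 high tumour in each group. The log2 fold change was 0.20 ± 1.06 (SE; quasi-likelihood test, adjusted p = 0.976), and its sign turned without tumour 35 (-0.02), 38 (-0.15) or 37 (-0.73).

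Ifi204 had 120.2, 79.8 and 92.7 CPM in the fl/fl tumours 35, 38 and 110. In the Δ/Δ tumours 26, 36 and 37 it had 1.90, 11.1 and 20.8 CPM. The highest Δ/Δ tumour was thus far below the lowest fl/fl tumour, and within the Δ/Δ group the tumours differed widely. The log2 fold change was -3.11 ± 0.70 (SE), with an unadjusted p of 0.00106 and an adjusted p of 0.175 in the quasi-likelihood test. Other treatments of the same counts did call Ifi204: edgeR's likelihood ratio test (adjusted p = 0.0023), in which it was the sole member called while 1.53% of all genes were called lower, DESeq2 (adjusted p = 0.00014), and the quasi-likelihood test with no filter on low counts (adjusted p = 0.0164) or with genes of at least 10 counts in every library (adjusted p = 0.0349). It was not called under 3 other scalings or in the fit of all 4 groups (adjusted p = 0.216), nor with any tumour left out, where the log2 fold change ran from -2.61 without tumour 26 to -3.90 without tumour 37 and the adjusted p from 0.0997 to 0.517.

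Ifi203, a nuclear protein of the family, had 63.3, 83.4 and 86.3 CPM in the fl/fl tumours 35, 38 and 110 and 24.8, 9.91 and 36.3 CPM in the Δ/Δ tumours 26, 36 and 37. The groups did not overlap. The log2 fold change was -1.71 ± 0.50 (SE; quasi-likelihood test, adjusted p = 0.262). DESeq2 called it (adjusted p = 0.0361) together with Ifi204, where 1.96% of all genes were called lower.

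Ifi211, whose counts share the most sequence with other genes, had 29.1, 23.3 and 26.9 CPM in fl/fl and 5.71, 5.94 and 12.4 CPM in Δ/Δ tumours, in the same order of replicates. Its log2 fold change was -1.72 ± 0.68 (SE; quasi-likelihood test, adjusted p = 0.472). Ifi207 was low throughout, with 11.3, 11.996 and 6.05 CPM in fl/fl tumours, 4.44 and 4.82 CPM in the Δ/Δ tumours 26 and 37, and no count in tumour 36, where 3 counts would have been 0.192 CPM. Both genes had groups that did not overlap, although the gap for Ifi207 was narrow (log2 fold change -1.66 ± 1.51 SE; quasi-likelihood test, adjusted p = 0.802).

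Ifi209 and Ifi213 did not follow the same pattern. Ifi209 had 23.1, 14.6 and 20.2 CPM in fl/fl tumours, no count in the Δ/Δ tumours 26 and 36, and 18.1 CPM in tumour 37. The Δ/Δ tumours were therefore split, with tumour 37 inside the fl/fl range. Its log2 fold change of -1.68 ± 1.75 (SE; quasi-likelihood test, adjusted p = 0.838) rests on tumour 37. Without it both remaining Δ/Δ tumours had no count, and the fl/fl level was at least 188-fold higher than a floor of 3 counts over these 2 tumours, with an adjusted p of 0.0748 in the quasi-likelihood test. Ifi213 went the other way, with 11.8, 21.9 and 30.8 CPM in fl/fl and 53.8, 16.04 and 53.1 CPM in Δ/Δ tumours, and the ranges overlapped through tumour 36 (log2 fold change 0.93 ± 0.60 SE; quasi-likelihood test, adjusted p = 0.697). As a share of all counts of the 7 members, Ifi213 took 4.47 to 11.1% in fl/fl and 32.2 to 57.5% in Δ/Δ tumours, whereas Ifi204 took 33.4 to 45.4% and 2.03 to 22.3%.

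**Figure D2:**
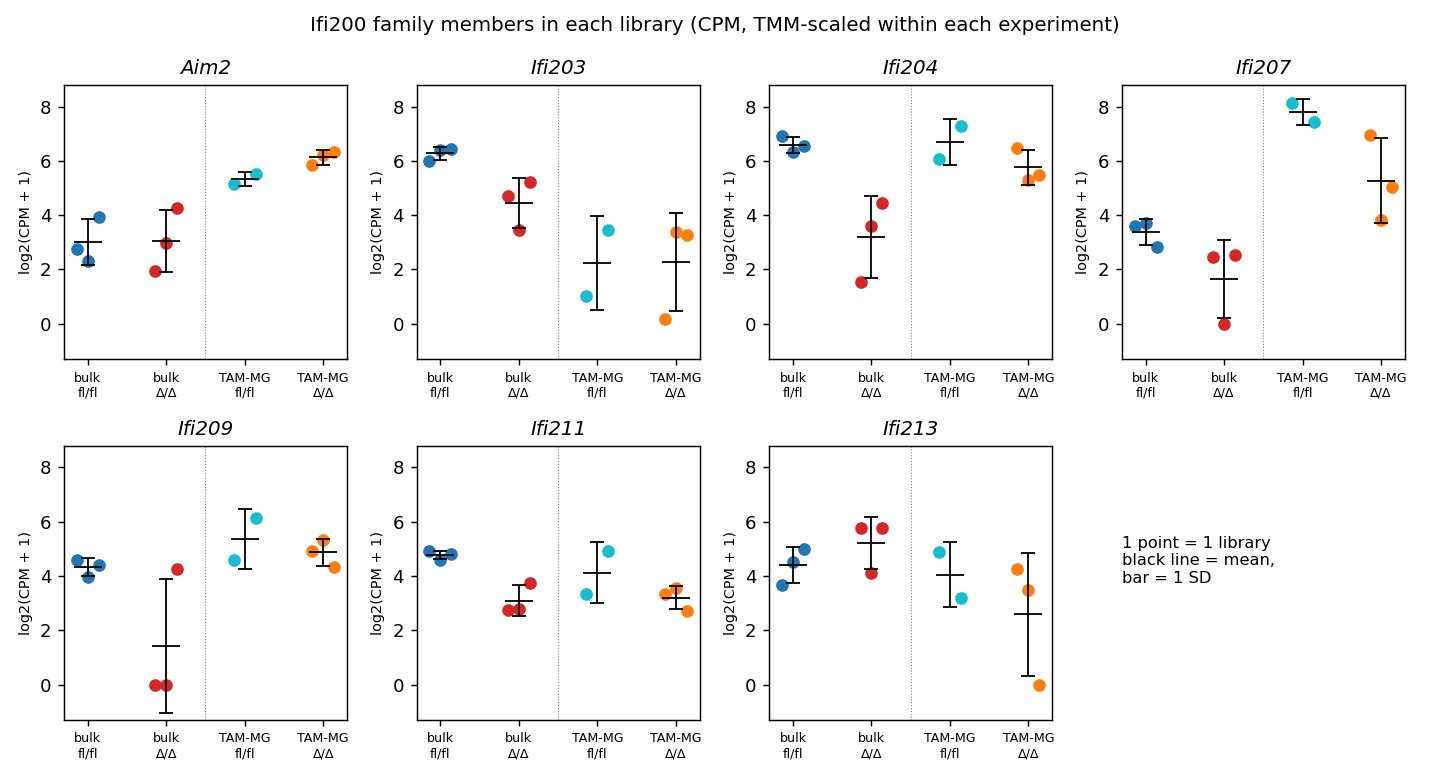
Each panel shows 1 member, with log2(CPM + 1) on the vertical axis and 1 point for each library of the 4 groups. Black lines are means and bars 1 SD. In bulk tumours the 3 Δ/Δ points of Ifi204 lie below the 3 fl/fl points, and in TAM-MG the 3 Δ/Δ points of Aim2 lie above the 2 fl/fl points.

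The deposited TPM values for bulk tumours hold 2 of the 7 members. Aim2 had 1.87, 0.819 and 5.68 TPM in fl/fl and 4.71, 3.52 and 6.81 TPM in Δ/Δ tumours, and Ifi213 had 3.16, 6.21 and 10.4 against 21.4, 6.99 and 19.5 TPM. Both had the same direction as in the counts, and limma on log2(TPM + 1) called neither (adjusted p = 0.687 and 0.574).

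Markers of myeloid cells moved with the family in bulk tumours. All 12 genes shared by microglia and macrophages, such as Csf1r, Itgam and Ptprc, had negative log2 fold changes (median -1.32), and their summed level was 1629 to 2333 CPM in fl/fl and 542 to 1109 CPM in Δ/Δ tumours. Likewise 9 of 9 microglia genes (244 to 426 against 33.3 to 147 CPM summed) and 8 of 9 tested genes of infiltrating monocytes and macrophages (2493 to 3962 against 1541 to 2995 CPM summed) were negative. Genes of T and NK cells were negative in 7 of 7 tested (41.4 to 139 against 10.1 to 33.2 CPM summed), with Ncr1 and Klrb1c at 0 in the Δ/Δ tumours. B cell genes summed to 6.65 to 16.4 against 0 to 1.90 CPM, with Cd79a and Ms4a1 at 0 in the Δ/Δ tumours, and granulocyte genes to 20.04 to 38.3 against 0.64 to 11.98 CPM, with Ly6g and Camp at 0 in all 6 tumours. All 6 neuronal genes were positive (1625 to 2544 against 1121 to 3443 CPM summed). The quasi-likelihood test called none of these marker genes. At an unadjusted p under 0.05 it gave 9 of the 12 shared myeloid genes, 4 of the microglia genes and 4 of the infiltrating genes as lower, and 5, 0 and 2 passed the likelihood ratio test. The likelihood ratio test called 1.53% of all genes lower. In bulk tissue, fewer cells of a type and less RNA per cell cannot be told apart, and the part of the markers in the result was not tested.

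The family total was computed beside these markers. The 7 members summed to 239 to 277 CPM in fl/fl and 49.8 to 164 CPM in Δ/Δ tumours, a log2 ratio of means of -1.35. Per 1000 counts of the 12 shared myeloid genes, the members had 119 to 162 counts in fl/fl and 73.5 to 172 in Δ/Δ tumours, so that on this scale the groups overlapped. Ifi204 had 39.8 to 73.8 counts in fl/fl and 3.51 to 18.7 in Δ/Δ tumours per 1000 myeloid counts, with no overlap. Ifi213 had 7.27 to 13.2 against 23.7 to 99.1, also with no overlap and in the other direction. Ifi211 had 11.5 to 17.8 against 8.78 to 11.1, with a narrow gap and no overlap. Ifi203 (36.98 to 49.2 against 14.6 to 45.7), Aim2, Ifi207 and Ifi209 overlapped. The marker sum was itself lower in Δ/Δ tumours, so that a gene of unchanged CPM rises on this scale. Its 12 genes differed among themselves, with log2 fold changes from -3.36 (Itgam) to -0.69 (C1qa) in the likelihood ratio fit. The share of all genes without overlap on this scale was not computed.

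**Figure D3:**
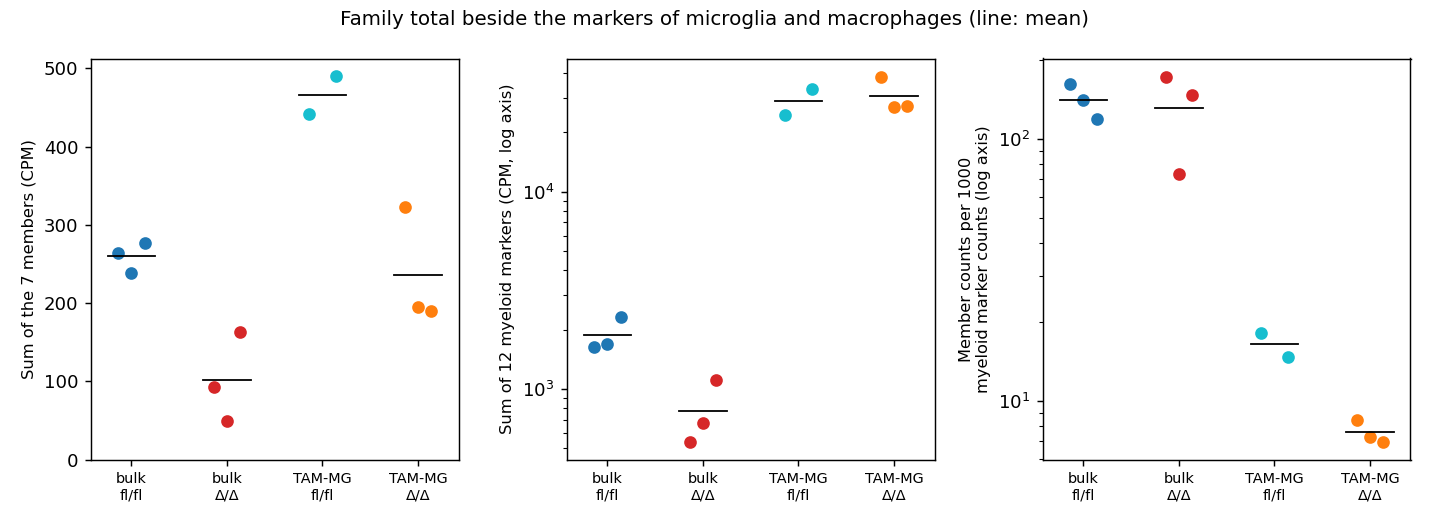
Points are libraries and lines are group means for the summed CPM of the 7 members, for the summed CPM of 12 myeloid markers (log axis) and for member counts per 1000 counts of these markers (log axis). In bulk tumours both sums were lower in Δ/Δ mice and their ratio overlapped, and in TAM-MG the ratio was 14.7 and 18.1 in fl/fl against 6.98 to 8.45 in Δ/Δ mice.

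In TAM-MG the picture differed from gene to gene, with Aim2 higher and Ifi207 lower in every Rheb1 Δ/Δ library, and again no member was called. The quasi-likelihood test called 0 of 14872 genes (0%), and at an unadjusted p under 0.05 it gave 813 higher and 342 lower genes, of which 0 were members. Neither the likelihood ratio test nor DESeq2 called a member. The median log2 fold change of the members was -0.96, with 5 negative and 2 positive, and the median of all tested genes was 0.08. Groups that did not overlap were seen for 1 member in each direction, beside 11.5% of all genes lower and 14.6% higher.

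Aim2 had 34.2 and 44.3 CPM in the fl/fl libraries 74 and 78 and 56.0, 74.1 and 79.9 CPM in the Δ/Δ libraries 54, 63 and 65. All 3 Δ/Δ libraries were above both fl/fl libraries. The log2 fold change was 0.83 ± 0.34 (SE; quasi-likelihood test, adjusted p = 0.552), and it ran from 0.67 to 1.05 when each library was left out. In TPM the Δ/Δ libraries were also above both fl/fl libraries, with 19.5 and 23.1 in fl/fl and 46.7, 39.0 and 35.6 in Δ/Δ libraries, although the order within the Δ/Δ group was the reverse of that in CPM.

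Ifi207 had the highest CPM among the members in fl/fl TAM-MG, with 279 and 174 CPM in the libraries 74 and 78. Outside the members, the cluster gene Ifi202b was above Ifi207 in library 78 (198 CPM) and below it in library 74 (75.0 CPM). In the Δ/Δ libraries 54, 63 and 65 Ifi207 had 122, 13.1 and 32.3 CPM. The groups did not overlap, but the Δ/Δ libraries spanned a wide range. The log2 fold change was -2.02 ± 0.88 (SE; quasi-likelihood test, adjusted p = 0.552), and in TPM the values were 103 and 50.8 against 42.1, 3.87 and 10.1. Its log2 fold change was -3.31 without library 54 and -1.55 without library 63.

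Ifi204 had 66.9 and 156 CPM in fl/fl and 88.3, 38.6 and 44.0 CPM in Δ/Δ TAM-MG, and library 54 lay between the fl/fl libraries (log2 fold change -0.97 ± 0.53 SE; quasi-likelihood test, adjusted p = 0.66). Ifi211 had 9.01 and 29.2 against 9.14, 10.6 and 5.60 CPM, and Ifi209 had 22.9 and 69.1 against 29.4, 38.9 and 19.4 CPM. In these 3 genes the fl/fl library 78 was the highest of the 5. Without it the log2 fold changes were -0.22 for Ifi204, -0.08 for Ifi211 and 0.36 for Ifi209, where those with it were -1.17 for Ifi211 and -0.65 for Ifi209.

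Ifi203 and Ifi213 varied more between libraries than between genotypes. Ifi203 had 1.03 and 10.02 CPM in fl/fl and 0.13, 9.44 and 8.66 CPM in Δ/Δ TAM-MG, where library 54 held 3 counts and library 63 held 246. The sign of its log2 fold change of 0.14 ± 1.83 (SE) turned under 5 alternatives, 3 of them with library 63, 65 or 74 left out. Ifi213 had 28.6 and 8.16 CPM in fl/fl, 18.2 and 10.1 CPM in the Δ/Δ libraries 54 and 63, and no count in library 65, in which 3 counts would be 0.123 CPM. Neither genotype stood apart for these genes (quasi-likelihood test, adjusted p = 0.996 and 0.976).

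The family total in TAM-MG was 442 and 491 CPM in fl/fl and 323, 195 and 190 CPM in Δ/Δ libraries, a log2 ratio of means of -0.98. Ifi207 made up 63.2 and 35.5% of the member counts in fl/fl and 6.74 to 37.7% in Δ/Δ libraries, and Aim2 7.74 and 9.04% against 17.3 to 42.1%. The 12 shared myeloid genes were at 24426 and 33335 CPM in fl/fl and at 26762 to 38259 CPM in Δ/Δ TAM-MG, with 4 negative and 8 positive log2 fold changes. All 9 microglia genes were positive (18442 and 23736 against 21771 to 32217 CPM summed). Dendritic cell genes summed to 103 and 171 CPM in fl/fl and 40.9 to 47.8 CPM in Δ/Δ libraries, and 5 of 6 were negative. T and NK cell genes summed to 26.3 and 26.4 against 8.74 to 19.3 CPM, with Cd4 and Ncr1 at 0 in all 5 libraries. Of the 5 tested, 4 were negative and 1 positive. Against the direction of the sum, Cd3e, Cd3d, Cd8a and Trac were at 0 in the fl/fl group but not in the Δ/Δ group. The sum of oligodendrocyte genes (144 and 180.2 against 89.7 to 118 CPM) was lower without overlap as well, with 4 of 5 negative. The sums of granulocyte genes (178 and 261 against 304 to 328 CPM, with Ly6g at 0) and neuronal genes (5.84 and 6.24 against 9.93 to 21.5 CPM) were higher without overlap. Single granulocyte genes were split, with 2 negative (Camp and S100a8) and 2 positive (S100a9 and Csf3r). Of the tested neuronal genes 1 was negative and 3 were positive. Infiltrating genes summed to 1247 and 1532 against 619 to 1963 CPM. The part of these markers in the values of the members was not tested.

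**Figure D4:**
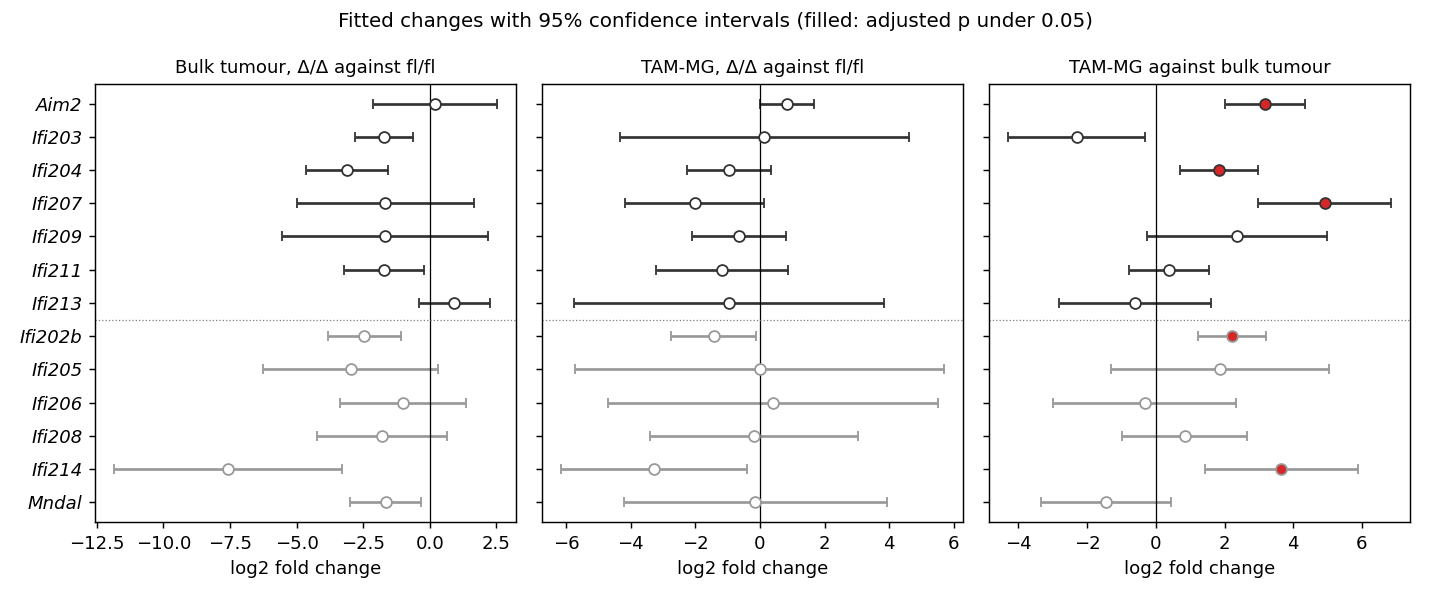
Points are log2 fold changes from edgeR with 95% confidence intervals for the 7 members (black) and 6 other cluster genes (grey), by comparison, and filled points had an adjusted p under 0.05. Filled points appear only in TAM-MG against bulk, for Aim2, Ifi204, Ifi207, Ifi202b and Ifi214. The bulk fold of Ifi214 depends on a prior count, since the Δ/Δ tumours held 1 read in all.

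Whether the difference between genotypes was itself different in TAM-MG and in bulk tumours was put to an interaction term, fitted on the 11 libraries together. The quasi-likelihood test called 48 of 21342 genes (0.225%) and no member. The difference of the log2 fold changes was 2.17 for Ifi204 (95% interval -0.13 to 4.47; adjusted p = 0.434), 1.88 for Ifi203 (-1.89 to 5.64; adjusted p = 0.808), 0.67 for Aim2 (-1.56 to 2.90; unadjusted p = 0.524) and -1.83 for Ifi213 (-6.18 to 2.51; adjusted p = 0.882). These intervals are wide, and a miss of the threshold does not show equal effects. Bulk tumour 37 was the only Δ/Δ tumour with counts of Ifi209, so that leaving it out left no count in that group. The test then called Ifi209 (adjusted p = 0.0433), which follows from the choice of the tumour left out and is no support for a difference.

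Levels in TAM-MG and bulk tumours were then compared over both genotypes, with all 11 libraries scaled together. Aim2, Ifi207 and Ifi204 were higher in TAM-MG, as were 20.5% of all 21342 genes tested, and 32.4% of genes and no member were lower. Aim2 had 2.43, 5.21 and 15.0 CPM as lowest, median and highest value in the 6 bulk tumours and 40.5, 70.001 and 100.5 CPM in the 5 TAM-MG libraries, with no overlap. Its log2 difference was 3.18 ± 0.53 (SE; quasi-likelihood test, adjusted p = 0.00067). Ifi207 had 0, 4.50 and 10 CPM in bulk tumours and 16.7, 152 and 331 CPM in TAM-MG, also apart, with a log2 difference of 4.92 ± 0.89 (SE; quasi-likelihood test, adjusted p = 0.0011). Ifi204 had 1.60, 41.9 and 98.6 against 49.2, 79.3 and 193 CPM and overlapped (1.84 ± 0.51 SE; quasi-likelihood test, adjusted p = 0.0123).

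The call of Ifi204 rested on the Δ/Δ libraries. In the fl/fl libraries alone its log2 difference was 0.76 ± 0.75 (SE; quasi-likelihood test, adjusted p = 0.445), and in the Δ/Δ libraries alone 2.93 ± 0.73 (SE; adjusted p = 0.0116). It was also lost without TAM-MG library 78 (1.31; adjusted p = 0.0851). Aim2 and Ifi207 were called in the fl/fl libraries alone (adjusted p = 0.0186 and 0.014), where 11.5% of all genes were called higher.

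Ifi203 was the one member with a lower fitted level in TAM-MG near the threshold, with 8.30, 41.0 and 71.2 CPM in bulk tumours and 0.17, 10.9 and 12.4 CPM in TAM-MG. Its log2 difference was -2.30 ± 0.91 (SE; quasi-likelihood test, adjusted p = 0.0515), and it was called lower under 5 other treatments of the counts, among them the likelihood ratio test (adjusted p = 0.0182) and DESeq2 (adjusted p = 0.00656). Ifi209 had 0, 13.6 and 19.0 CPM in bulk tumours and 24.4, 36.8 and 85.7 CPM in TAM-MG. These ranges did not overlap, as for 14.6% of all genes in this direction, and its adjusted p was 0.115 in the quasi-likelihood test. Without bulk tumour 37 it was called (log2 difference 7.07; adjusted p = 0.00016). The remaining Δ/Δ tumours then had no count of Ifi209, so that this call follows from the tumour left out. Ifi211 (0.39; adjusted p = 0.563) and Ifi213 (-0.61; adjusted p = 0.64) had overlapping ranges.

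The 12 shared myeloid genes were all higher in TAM-MG (median log2 difference 4.94), and all 6 neuronal genes were lower (median -7.49). The sorted cells and the fixed tissue also differ in how RNA was obtained, so that cell makeup and extraction cannot be told apart in these differences. Per 1000 counts of the shared myeloid genes, the members had 6.98 to 18.1 counts in TAM-MG and 73.5 to 172 in bulk tumours, without overlap. The marker sum was itself far higher in TAM-MG, so that a gene less raised there than the markers falls on this scale. The ratio is therefore no measure of the level per myeloid cell. The share of all genes without overlap between TAM-MG and bulk tumours on this scale was not computed.

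Levels per exon length give an order of the members that holds for the length used, the merged exons of all annotated transcripts of a gene. For Ifi213 and Ifi203 this length was 6840 and 6706 bases, where the longest transcript had 3090 and 3754 bases. For Ifi211 both were 1785 bases. The order by transcript length was not computed and can differ. In fl/fl bulk tumours Ifi204 was first with 22.6 ± 4.605 CPM per kb of exon (SD, n = 3), followed by Ifi211 with 12.2 ± 1.25, Ifi203 with 9.57 ± 1.60 and Ifi209 with 4.49 ± 0.98. The ranges of these genes over the tumours did not overlap, but the gap was narrow between Ifi211 (lowest 10.9) and Ifi203 (highest 10.6). Ifi213 (2.60 ± 1.15), Ifi207 (2.36 ± 0.79) and Aim2 (1.90 ± 1.304) came last, and from Ifi209 down each gene overlapped with the next. In the Δ/Δ bulk tumours Ifi213 was first (5.01 ± 2.64, SD, n = 3) and Ifi207 last (0.75 ± 0.65), and every pair of neighbours overlapped. In fl/fl TAM-MG, Ifi207 was first (79.9 ± 23.8, SD, n = 2) and apart from Ifi204 (38.3 ± 22.7). Ifi204, Ifi209 (15.9 ± 11.7), Aim2 (13.6 ± 2.93) and Ifi211 (13.1 ± 10.1) each overlapped with the next, and Ifi211 was apart from Ifi213 (3.22 ± 2.46). In TPM the first step did not hold in library 78, where Ifi204 had 69.6 and Ifi207 50.8 TPM, against 36.3 and 103 TPM in library 74. The step from Ifi211 to Ifi213 did not hold in library 74, where Ifi211 had 8.28 and Ifi213 21.6 TPM, against 33.4 and 4.86 TPM in library 78. In Δ/Δ TAM-MG, Aim2 was first (25.2 ± 4.61, SD, n = 3), and it overlapped with Ifi207 (20.4 ± 21.2) and Ifi204 (20.1 ± 9.47). Ifi203 was last in both TAM-MG groups (1.02 ± 1.18 and 1.15 ± 0.98).

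**Figure D5:**
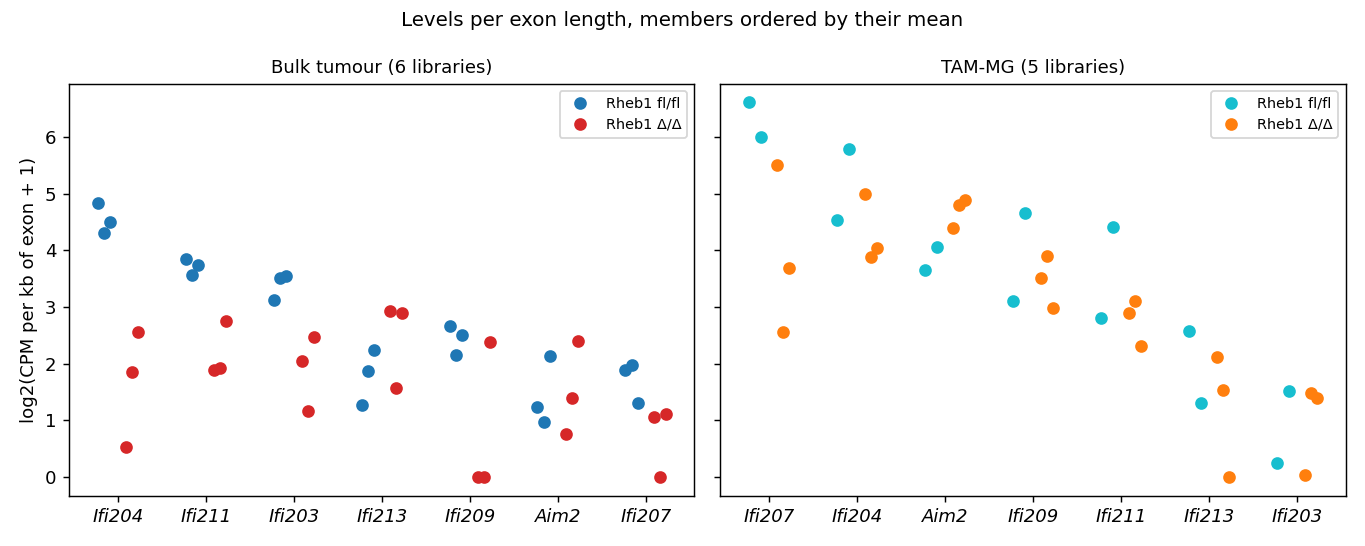
Points give log2(CPM per kb of exon + 1) of each library, with the members ordered by their mean over all libraries of an experiment. By merged exon length, Ifi204 leads in bulk tumours and Ifi207 in TAM-MG, and Ifi203, the third in bulk tumours, is last in TAM-MG.

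The other genes of the cluster were lower in Δ/Δ bulk tumours too, with negative log2 fold changes in all 6 tested and a median of -2.13. No gene was called by the quasi-likelihood test, 3 had an unadjusted p under 0.05, and the likelihood ratio test called Ifi202b (adjusted p = 0.0122) and Ifi214 (adjusted p = 0.0115), beside 1.53% of all genes lower. Ifi202b, which lacks the pyrin domain and restrains Aim2, had 75.6, 21.0 and 90.8 CPM in fl/fl and 6.76, 12.1 and 15.0 CPM in Δ/Δ tumours, with no overlap, as in 9.23% of all tested genes. Ifi214 had 35, 232 and 41 counts in fl/fl tumours and 0, 0 and 1 count in Δ/Δ tumours, and part of its sequence is also that of Ifi209. In TAM-MG, Ifi202b had 75.0 and 198 CPM in fl/fl and 45.8, 73.6 and 31.8 CPM in Δ/Δ libraries (log2 fold change -1.43 ± 0.54 SE; quasi-likelihood test, adjusted p = 0.552), and Ifi214 had 254 and 215 counts against 15, 38 and 20. For both genes all Δ/Δ libraries were below both fl/fl libraries, as in 11.5% of all tested genes. Without the fl/fl library 78 the log2 fold change of Ifi202b was -0.56. The median of the 6 tested genes in TAM-MG was -0.16. Against bulk tumours, Ifi202b (2.22 ± 0.46 SE; quasi-likelihood test, adjusted p = 0.0023) and Ifi214 (adjusted p = 0.0123) were higher in TAM-MG.

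Mndal spans Ifi211 and overlaps most of Ifi203 on the same strand, and it shares 37 exon bases with Ifi203. It had 60.3, 54.2 and 58.0 CPM in fl/fl and 11.1, 7.67 and 36.1 CPM in Δ/Δ bulk tumours. Its TPM values did not follow, with 26.5, 39.9 and 16.4 in fl/fl and 29.5, 30.5 and 14.6 in Δ/Δ tumours. In TAM-MG library 54, where Ifi203 held 3 counts, Mndal held 2 counts and 4.92 TPM.

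The partners of Aim2 in the inflammasome were mostly lower in Δ/Δ bulk tumours, in 10 of 11 tested genes of a list of 14, with a median log2 fold change of -2.51. The quasi-likelihood test called none, 4 had an unadjusted p under 0.05, and the likelihood ratio test called 2, Casp1 and the interleukin-1β gene Il1b, beside 1.53% of all genes lower. Casp1 had 30.2, 31.0 and 36.5 CPM in fl/fl and 9.72, 2.30 and 4.34 CPM in Δ/Δ tumours (log2 fold change -2.58; likelihood ratio test, adjusted p = 0.0367). Il1b had 356, 242 and 640 counts in fl/fl tumours and 0, 0 and 3 counts in Δ/Δ tumours (likelihood ratio test, adjusted p = 3.8e-06). Pycard had -1.001 ± 0.72 (SE) and the pore-forming Gsdmd -2.02 ± 0.59. In TAM-MG 5 of 13 tested were negative and 8 positive, and no gene was called by the quasi-likelihood test or the likelihood ratio test. There 2 had an unadjusted p under 0.05, Casp4 (2.03 ± 0.55 SE) and Nlrp1b (3.87 ± 1.09 SE). Il1b was the one gene of the list that the quasi-likelihood test called in the interaction (adjusted p = 0.0456), with 17930 and 2721 counts in fl/fl and 5526 to 7621 counts in Δ/Δ TAM-MG. Between TAM-MG and bulk tumours 12 of 14 were called higher, beside 20.5% of all tested genes. Pycard was among them (5.68 ± 0.32 SE; quasi-likelihood test, adjusted p = 1.1e-06).

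Genes of cytosolic DNA sensing, such as Cgas, which makes the messenger cGAMP, and Tmem173, which encodes its receptor STING, were counted in the same way. In bulk tumours 9 of 12 tested were negative, with a median of -0.53, none was called by the quasi-likelihood test, 1 in each direction had an unadjusted p under 0.05, and the likelihood ratio test called 1, the nucleotide hydrolase Samhd1 (-1.66; adjusted p = 0.0465). Cgas had -0.97 ± 0.99 (SE) and Tmem173 -1.44 ± 0.78. In TAM-MG 8 of 12 were negative with a median of -0.23, and neither test called any. There the nucleic acid sensor Zbp1 had -1.10 ± 0.33 (SE; quasi-likelihood test, adjusted p = 0.506) and Tmem173 0.81 ± 0.38. All 12 tested but Ikbke were called higher in TAM-MG than in bulk tumours, beside 20.5% of all tested genes. Trex1, a nuclease that degrades cytosolic DNA, had no count in any of the 11 libraries.

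Interferon signalling genes were lower in Δ/Δ bulk tumours in 12 of 13, with a median of -0.92. The quasi-likelihood test called none, 6 had an unadjusted p under 0.05, and the likelihood ratio test called 4, beside 1.53% of all genes lower. Among the 4 were the transcription factors Irf1 (-1.84; likelihood ratio test, adjusted p = 0.00012), Irf8 (-2.97; adjusted p = 0.0014) and Irf9 (-1.44; adjusted p = 0.0433). In TAM-MG 10 of 13 were positive with a median of 0.42. The quasi-likelihood test called none there, and the likelihood ratio test called Irf7, a factor of type I interferon induction (-1.55; adjusted p = 0.043), where it called 0.471% of all genes lower. The type I interferon receptor gene Ifnar1 had 1.06 ± 0.33 (SE; quasi-likelihood test, adjusted p = 0.506).

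Genes outside the cluster with the profile most like the family mean were Arhgap9, H2-T23, Cxcl16, Trp53 and Tgfbi, with Pearson's r of 0.95, 0.94, 0.93, 0.93 and 0.93 over the 11 libraries among 12654 genes. Profiles were log2(CPM + 1) centred within each experiment, the libraries are shared by all genes, and r is given as a description. Within the family, Ifi204, Ifi209 and Ifi211 followed each other, with r from 0.85 to 0.88. They also share sequence windows in part (Ifi204 with Ifi211). Over the 11 libraries Aim2 had r between -0.37 and 0.42 with the other members, and Ifi213 between -0.44 and 0.37. The experiments differed. Aim2 had r from -0.09 to 0.51 in bulk tumours and from -0.91 (Ifi207) to 0.46 (Ifi203) in TAM-MG. With Ifi204, Ifi207, Ifi209 and Ifi211, Ifi203 had r from 0.77 to 0.91 in bulk tumours and from -0.57 to 0.40 in TAM-MG.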

How the data were processed

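The members, gene lists and tests were chosen with earlier results of these data known. The authors aligned reads of SmartSeq2 and Nextera XT libraries to GRCm38 with an Ensembl annotation and deposited raw counts per gene from STAR and TPM from Salmon, whose versions are not given in the sources used here. The deposited TPM values of bulk tumours cover 12719 genes, and those of TAM-MG carry an unnamed total, as do the deposited TAM-MG counts (100% of the gene sum), and these totals were left out. Symbols came from GENCODE and RefSeq tables of GRCm38, matching 50376 of 50686 identifiers.

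Counts were fitted in edgeR 4.0.16 (R 4.3.3) after filterByExpr (minimum count 10, total 15) with TMM scaling and the quasi-likelihood test, over all genes that passed. All 7 members passed in each comparison. A call needed an adjusted p under 0.05 (Benjamini-Hochberg) and a change of 1.5-fold. Standard errors were derived from the F statistic. Each library is 1 mouse. The smallest exact permutation p is 0.1 in either experiment. Alternatives were the likelihood ratio test, DESeq2 1.42.0, other scalings and filters, limma 3.58.1 on TPM, and leaving out each library. The 95% intervals come from the quasi-likelihood fit and include the spread between mice, and floors of 3 counts cover counting error only. The genes named are all members and the other cluster genes, the genes of the lists and the 5 most alike in profile. Fits were tested on simulated data. Strand use in counting is not given in the sources used here.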

Additional observations from a re-analysis of the deposited data

How the results depend on the processing

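No paired analysis was possible because the groups share no replicate numbers. In bulk tumours, genes called higher numbered 123 with the likelihood ratio test, 140 with DESeq2, 17 with no filter, 8 with a minimum of 10 counts per library and 1 in a fit of all 4 groups, and genes called lower 260, 334, 85, 54 and 17, with 1 under each of 3 limma settings on TPM. Members called lower numbered 1, 2, 1 and 1 under the first 4 of these. In TAM-MG, genes called higher numbered 175 with the likelihood ratio test, 387 with DESeq2 and 55 in the fit of all 4 groups, and lower 70, 90 and 10. Scaling to an equal mean of log2 CPM turned Ifi203 in TAM-MG to -0.25, and limma on log2(TPM + 0.1) to -0.084.

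For levels in TAM-MG against bulk tumours, genes called higher numbered 2279 with a minimum of 10 counts per library, 6901 with equal mean scaling and 2451 in fl/fl libraries, and lower 2292, 4507 and 3377, with 3894 lower in Δ/Δ libraries. Members called higher numbered 5 with equal mean scaling, and 2 in fl/fl libraries. Members called lower numbered 1 under the likelihood ratio test, DESeq2, RLE scaling, scaling by library size and no filter. The log2 difference of Ifi211 turned to -0.22 with library size, and that of Ifi213 to 0.56 with equal mean scaling and 0.31 in fl/fl libraries. The median log2 value of all genes was 0.0034 in bulk tumours, 0.081 in TAM-MG and -0.89 in levels with TMM, and 0.14, -0.49 and 0.22 with equal mean scaling. With library size it was -1.45 in levels. For the interaction, genes called higher numbered 663 with the likelihood ratio test, 966 with DESeq2, 7 with RLE, 65 with no filter, 3 with at least 10 counts and 2 with equal mean scaling, and lower 172, 240, 1, 11, 0 and 1.

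With each library left out in turn, genes called in bulk tumours ran from 0 to 1 higher and 0 to 7 lower, in levels from 3398 to 4027 higher and 4906 to 7155 lower, and in the interaction from 1 to 328 higher and 0 to 33 lower. Members called ran from 2 to 4 higher and 0 to 1 lower in levels and from 0 to 1 higher in the interaction. The log2 values that turned sign ran from -0.73 to 0.90 for Aim2 in bulk tumours, in TAM-MG from -0.71 to 2.57 for Ifi203, -1.23 to 0.36 for Ifi209, -1.86 to 0.23 for Ifi213 and -0.57 to 0.44 for Mndal, from -0.32 to 0.56 for the level of Ifi211, and in the interaction from -0.028 to 1.65 for Aim2, -1.57 to 0.18 for Ifi207 and -0.012 to 1.76 for Ifi211. The family sum kept its sign, from -1.86 to -1.02 in bulk tumours and -1.28 to -0.85 in TAM-MG. The cause of these shifts was not tested. Groups of 2 or 3 mice limit the precision.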
